A study of Mus musculus with 12 samples.

Results

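The 35 genes described here encode enzymes of glycolysis, of the pentose phosphate pathway, of serine synthesis and of folate one-carbon metabolism, together with a lactate exporter and the transcription factor HIF1A. They were chosen by symbol from the deposited table of raw counts and match 36 of its 55536 entries, because Aldoa is listed under 2 Ensembl identifiers. All 36 entries were among the 19800 tested for differences. They were followed in mouse pancreatic islets, clusters of hormone-secreting cells that consist mostly of insulin-producing beta cells in the mouse.

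Glycolysis splits glucose into pyruvate and yields ATP, and its committed step is the phosphorylation of fructose 6-phosphate by phosphofructokinase. The pentose phosphate pathway branches from glucose 6-phosphate and supplies NADPH, which regenerates glutathione, and ribose for nucleotides. Serine synthesis branches from 3-phosphoglycerate and feeds the folate cycle, which carries one-carbon units. Healthy beta cells oxidise most of their glucose carbon in mitochondria and express little lactate dehydrogenase A and little of the plasma membrane monocarboxylate transporters, which ties ATP production to the glucose supply.

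The study has 4 groups of 3 libraries of total RNA each, all from 16-week-old mice on a mixed C57BL/6J background. They are islets of the genotype labelled PTPN2 -/- that received a cytokine mix (IFN-gamma, TNF alpha, IL-1beta) in the medium for 24 h, untreated islets of that genotype, and islets labelled PTPN2 fl/fl (PTPN2 +/+ in the sample titles) with and without the same cytokines. The protocols call the first genotype Ptpn2-bKO, read here as a deletion in beta cells, and call the second control. No source used here names the Cre line that would drive such a deletion. Each genotype came from 3 mice per the protocols, so some of its 6 libraries share a mouse, and which ones is not stated. The p-values treat the libraries as independent and measure only the spread between them.

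Ptpn2, the tyrosine phosphatase that the genotype targets, was measured at 111, 84.2 and 107 CPM (counts scaled to a common library size with TMM factors) in cytokine-treated islets labelled bKO and at 88.9, 90.4 and 78.3 CPM in cytokine-treated control islets. Without cytokines it was at 36.7, 33.8 and 35.5 CPM in islets labelled bKO and at 30.3, 31.5 and 31.4 CPM in control islets. The level was thus not lower under the bKO label, with log2 differences of 0.23 with cytokines (SE 0.097, edgeR adjusted p = 0.26) and 0.19 without (SE 0.098, edgeR adjusted p = 0.989). A gene total can miss the loss of single exons, and the other cells of the islet keep the gene, so these counts check the label only in part. The genotype is therefore given as labelled throughout.

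Libraries held between 47064061 and 107515565 counts. The 36 entries took 0.863 to 1.02% of the counts in cytokine-treated islets labelled bKO, against 0.549 to 0.634% in untreated islets labelled bKO, and 0.787 to 0.912% in cytokine-treated control islets, against 0.556 to 0.681% in untreated control islets. One library stands apart. Replicate 2 of the cytokine-treated islets labelled bKO had a summed level of 6 ductal markers of 6800 CPM, of 5 stellate markers of 6090 CPM and of 10 beta cell markers of 90100 CPM. The other 2 libraries of that group had 2380 and 3280 CPM for ductal, 2390 and 2210 CPM for stellate and 163000 and 148000 CPM for beta cell markers. That library was also the highest of its group for 22 of the 36 entries and the lowest for 10. The same count over all genes was not made. Calls among the 36 entries that changed when this library was left out are given both ways. Treated control islets differed among themselves too, with stellate sums of 3190, 1090 and 2340 CPM and ductal sums of 2380, 1720 and 3180 CPM. Their replicate 2, the lowest in each of these, was the library with 107515565 counts.

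With cytokines, the genes rose on the whole. In islets labelled bKO, 24 of the 36 entries were higher than in untreated islets, 6 were lower and 6 did not pass the test (edgeR, quasi-likelihood, with p-values adjusted by Benjamini-Hochberg over all genes tested and called under 0.05). The change was widespread in these islets, since 62.4% of all genes tested were called, 28.8% as higher and 33.6% as lower. In control islets, 23 entries were higher, 6 were lower and 7 did not pass, beside 60.6% of all genes called, 26.8% as higher and 33.9% as lower. The median log2 fold change over the 36 entries was 0.71 in islets labelled bKO and 0.47 in control islets, while over all genes tested it was -0.06 in islets labelled bKO and -0.10 in control islets. The CPM of treated libraries lay wholly above the untreated ones for 25 entries and wholly below for 6 in islets labelled bKO, beside 29.8% and 35.3% of all genes. For control islets this held for 24 entries above and 6 below, beside 30.5% and 40% of all genes.

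Leaving out replicate 2 of the treated libraries labelled bKO, 28 entries were higher and 6 lower in that genotype. Over the 20286 genes then tested, 6079 were higher and 6555 lower there, against 5711 and 6647 of 19800 with that library. In control islets, which kept all their libraries, 25 entries were then higher and 6 lower. Calls over all genes rose there as well, to 6393 higher and 6771 lower, against 5298 and 6704. The control fold changes themselves had moved. Their median log2 over the entries was 0.542, against 0.472 with that library, and over all genes tested it was -0.033, against -0.101. Scaling by library totals alone, which moves the median of all genes to -0.329 in control islets, left 15 entries higher and 7 lower there and 21 higher and 6 lower in islets labelled bKO. Over all genes that scaling called 4000 higher and 8693 lower in islets labelled bKO and 3737 higher and 8998 lower in control islets, against 5711 and 6647 and 5298 and 6704 with TMM. In these total RNA samples, fewer cells of a type and less RNA per cell cannot be told apart. Markers of several cell types moved with the treatment, and their part in the results was not tested. Macrophage markers summed to between 474 and 609 CPM in treated and between 158 and 220 CPM in untreated islets labelled bKO, and 8 of the 9 were called higher. In control islets they summed to between 455 and 561 CPM with cytokines and between 163 and 191 CPM without, again with 8 of 9 higher. Endothelial markers summed to between 120 and 157 CPM in treated and between 500 and 511 CPM in untreated islets labelled bKO, and to between 91.3 and 140 CPM in treated and between 450 and 572 CPM in untreated control islets, with all 6 markers lower in both. Acinar markers summed to between 798 and 2930 CPM in treated and between 2090 and 3450 CPM in untreated islets labelled bKO, with 4 of 10 lower, and to between 910 and 1490 CPM in treated and between 4620 and 7510 CPM in untreated control islets, with 9 of 10 lower. Stellate markers were higher for 3 of 5 in islets labelled bKO and 1 of 5 in control islets, and ductal markers were higher for 2 of 6 in islets labelled bKO, while 2 of 6 were higher and 2 lower in control islets. Alpha cell markers were lower for 6 of 6 in islets labelled bKO and 5 of 6 in control islets. Delta cell markers summed to 448 to 656 CPM in treated and 1780 to 2090 CPM in untreated islets labelled bKO. In control islets they summed to 479 to 819 CPM with cytokines and 1830 to 2050 CPM without. PP cell markers summed to 819 to 1250 CPM in treated and 3350 to 4580 CPM in untreated islets labelled bKO. The control sums were 1250 to 1830 CPM with cytokines and 3650 to 4070 CPM without. Of the 10 beta cell markers, 7 were lower in each genotype, although their sum, most of it insulin RNA, was 90100 to 163000 CPM with cytokines and 125000 to 136000 CPM without in islets labelled bKO, and 145000 to 178000 CPM with and 125000 to 137000 CPM without in control islets.

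**Figure D1:**
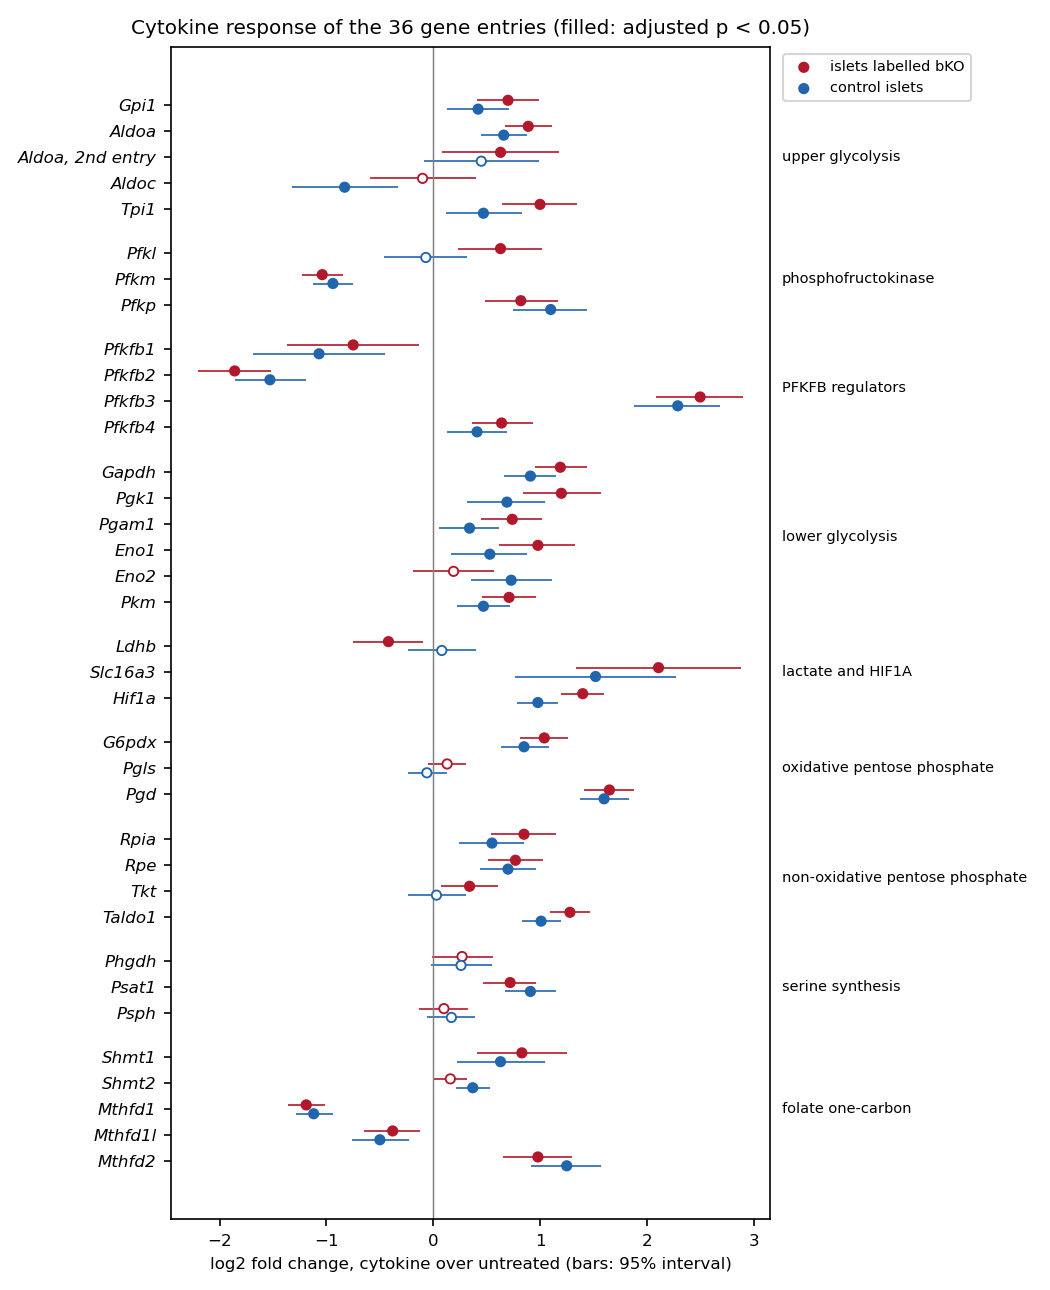
Log2 fold change of each gene entry with cytokines over untreated, in islets labelled bKO (red) and control islets (blue), with bars for the 95% interval and filled points for adjusted p under 0.05. Pfkfb3 has the largest increases, 2.50 and 2.29, while Pfkfb2, Mthfd1 and Pfkm lie left of 0 in both genotypes.

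Promoter sequences of 4 genes are shown because these genes carried the contrasts described further on: Pgk1, Slc16a3 and Pfkfb3 rose and Pfkm fell. Each runs 5′ to 3′ on the gene's own strand, from 250 bases before to 50 bases after a RefSeq start (GRCm38.p6), and where RefSeq lists several starts the one that the table gives first is printed. Capitals mark ACGTG or GCGTG on either strand, the core letters that hypoxia-inducible factors bind.
Pgk1, chrX:106186850-106187149, plus strand: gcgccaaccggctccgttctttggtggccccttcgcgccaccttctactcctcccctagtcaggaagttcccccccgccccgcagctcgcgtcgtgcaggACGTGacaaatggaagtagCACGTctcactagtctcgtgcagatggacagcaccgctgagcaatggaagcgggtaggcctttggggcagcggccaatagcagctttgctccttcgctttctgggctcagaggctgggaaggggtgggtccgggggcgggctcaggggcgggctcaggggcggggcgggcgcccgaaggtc
Slc16a3, chr11:120948817-120949116, plus strand: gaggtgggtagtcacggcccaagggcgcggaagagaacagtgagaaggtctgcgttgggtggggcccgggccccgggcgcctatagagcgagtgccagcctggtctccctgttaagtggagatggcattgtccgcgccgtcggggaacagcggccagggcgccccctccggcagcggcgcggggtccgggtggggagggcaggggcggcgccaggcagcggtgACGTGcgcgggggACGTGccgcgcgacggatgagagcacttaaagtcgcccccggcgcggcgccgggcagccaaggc
Pfkfb3, chr2:11502041-11502340, minus strand: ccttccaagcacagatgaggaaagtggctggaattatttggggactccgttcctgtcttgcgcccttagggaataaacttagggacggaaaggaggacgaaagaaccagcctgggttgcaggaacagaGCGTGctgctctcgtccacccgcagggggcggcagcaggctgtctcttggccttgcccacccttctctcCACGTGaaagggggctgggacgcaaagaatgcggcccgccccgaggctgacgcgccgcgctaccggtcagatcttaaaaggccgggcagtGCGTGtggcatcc
Pfkm, chr15:98092339-98092638, plus strand: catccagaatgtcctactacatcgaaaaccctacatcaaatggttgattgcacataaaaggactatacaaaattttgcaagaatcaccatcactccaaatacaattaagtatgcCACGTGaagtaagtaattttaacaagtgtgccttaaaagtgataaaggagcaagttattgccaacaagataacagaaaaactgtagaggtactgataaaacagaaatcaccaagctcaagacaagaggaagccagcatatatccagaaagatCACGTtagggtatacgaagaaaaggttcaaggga
Pgk1 and Slc16a3 each hold 2 copies of ACGTG, and Pfkfb3 holds 2 of GCGTG and an ACGTG that is part of the palindrome CACGTG and so is read on both strands. All 35 symbols had a RefSeq promoter, with 52 windows in total. ACGTG was in 36.5% of these 52 windows, against 19.6% of all 32851 mouse windows of the same length, and GCGTG was in 59.6%, against 32.4%. CACGTG, the E-box, was in 7.69% of them and in 7.15% of all windows. Of the other letters searched on both strands, TGACNNNGC (the core of the antioxidant response element) was in 9.62%, against 12.4% of all windows, TTCNNNGAA (the site of STAT proteins) in 5.77%, against 8.3%, and TGATGNAA (the ATF4 element) in 0, against 3.97%. Windows of 1 gene can overlap, and a match is a description of the letters, not a binding site. The 32851 windows were not limited to the genes tested here, and base composition was not matched, which limits what the shares can show. The Pfkm window, from the gene that fell, holds matches too. Among genes that rose in both genotypes, the windows of Gpi1, Tpi1, Rpe and Mthfd2 hold neither ACGTG nor GCGTG. Of the 35 symbols, 15 had ACGTG and 25 had GCGTG in a window.

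At the committed step, the 3 phosphofructokinase genes moved apart. Pfkm, the muscle-type subunit (ENSMUSG00000033065, chr15:98092589-98132451), was at 31.3, 24.9 and 28.9 CPM in cytokine-treated islets labelled bKO, against 58.4, 60.5 and 56.6 CPM in untreated islets labelled bKO. Control islets had 34.1, 33 and 31.2 CPM with cytokines, against 65, 63 and 60.4 CPM without. Every treated library lay below every untreated one. The log2 fold change was -1.04 in islets labelled bKO (SE 0.082, edgeR adjusted p = 8.3e-07) and -0.94 in control islets (SE 0.082, edgeR adjusted p = 2.0e-06).

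Pfkp, the platelet-type subunit, went the other way. It was at 187, 186 and 206 CPM in treated islets labelled bKO, against 132, 106 and 89 CPM in untreated ones, and at 190, 173 and 160 CPM in treated control islets, against 67.9, 97 and 79.5 CPM in untreated ones. It rose by a log2 fold change of 0.82 in islets labelled bKO (SE 0.15) and 1.10 in control islets (SE 0.15). Pfkl, the liver-type subunit, was called higher in islets labelled bKO, at 145, 198 and 173 CPM with cytokines against 129, 115 and 89.9 CPM without, with a log2 fold change of 0.63 (SE 0.17). In control islets it had 156, 120 and 115 CPM with cytokines, against 116, 157 and 137 CPM without, and the groups overlapped (log2 fold change -0.07, SE 0.17). The difference between these Pfkl responses was 0.70 (SE 0.24) and did not pass the test, with an edgeR adjusted p of 0.379. The Pfkl call in islets labelled bKO was lost when libraries were scaled by their totals alone (edgeR adjusted p = 0.0728).

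Divided by exon length, the 3 phosphofructokinase genes summed to between 45 and 51 CPM per kb in treated and between 37.1 and 46.7 CPM per kb in untreated islets labelled bKO. The control sums were between 38.5 and 47.7 CPM per kb with cytokines and between 42 and 49.7 CPM per kb without. The ranges per kb thus overlapped in both genotypes while the make-up changed. They depend on the exon lengths, 13401 bases for Pfkp, 6675 for Pfkl and 3340 for Pfkm. Without that division, the summed CPM of treated libraries lay above the untreated in islets labelled bKO and overlapped them in control islets. Pfkm supplied 17.6% ± 3.1 of the sum in treated and 41.7% ± 4.2 in untreated islets labelled bKO (SD, n = 3 each, exact permutation p = 0.1, two-sided, the smallest p that 3 against 3 libraries can give). In control islets it supplied 23.3% ± 1.6 with cytokines and 41.6% ± 4.3 without (SD, n = 3 each, exact permutation p = 0.1, two-sided). By counts not divided by length, Pfkm supplied 6.09 to 8.62% with cytokines and 18.3 to 24% without in islets labelled bKO. In control islets that share was 8.98 to 10.2% with cytokines and 19.9 to 26.1% without.

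Pfkp supplied 29.7% ± 2.2 with cytokines and 19.1% ± 1.7 without in islets labelled bKO, and 30.8% ± 0.99 with and 13.3% ± 1.2 without in control islets (SD, n = 3 each, exact permutation p = 0.1 in both). The share of Pfkl was 52.7% ± 5.1 in treated and 39.2% ± 2.6 in untreated islets labelled bKO (SD, n = 3 each, exact permutation p = 0.1), and 45.9% ± 2.6 in treated and 45% ± 3.1 in untreated control islets (exact permutation p = 0.8). By counts not divided by length, it was 39.8 to 48.5% with cytokines and 38.2 to 40.9% without in islets labelled bKO. In control islets it was then lower with cytokines, at 36.8 to 41% against 46.7 to 49.6%. Between genotypes without cytokines, Pfkl supplied 39.2% in islets labelled bKO and 45% in control islets, and Pfkp supplied 19.1% in islets labelled bKO and 13.3% in control islets (exact permutation p = 0.1 for both). With 12 such comparisons none can pass 0.05 in this design. Exons of Pfkm overlap those of Senp1 on the opposite strand, which averaged 31.7 CPM, and exons of Pfkp overlap those of Pitrm1, at 60.3 CPM. Since no source states whether counting used strand, the reads of such pairs cannot be told apart.

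**Figure D2:**
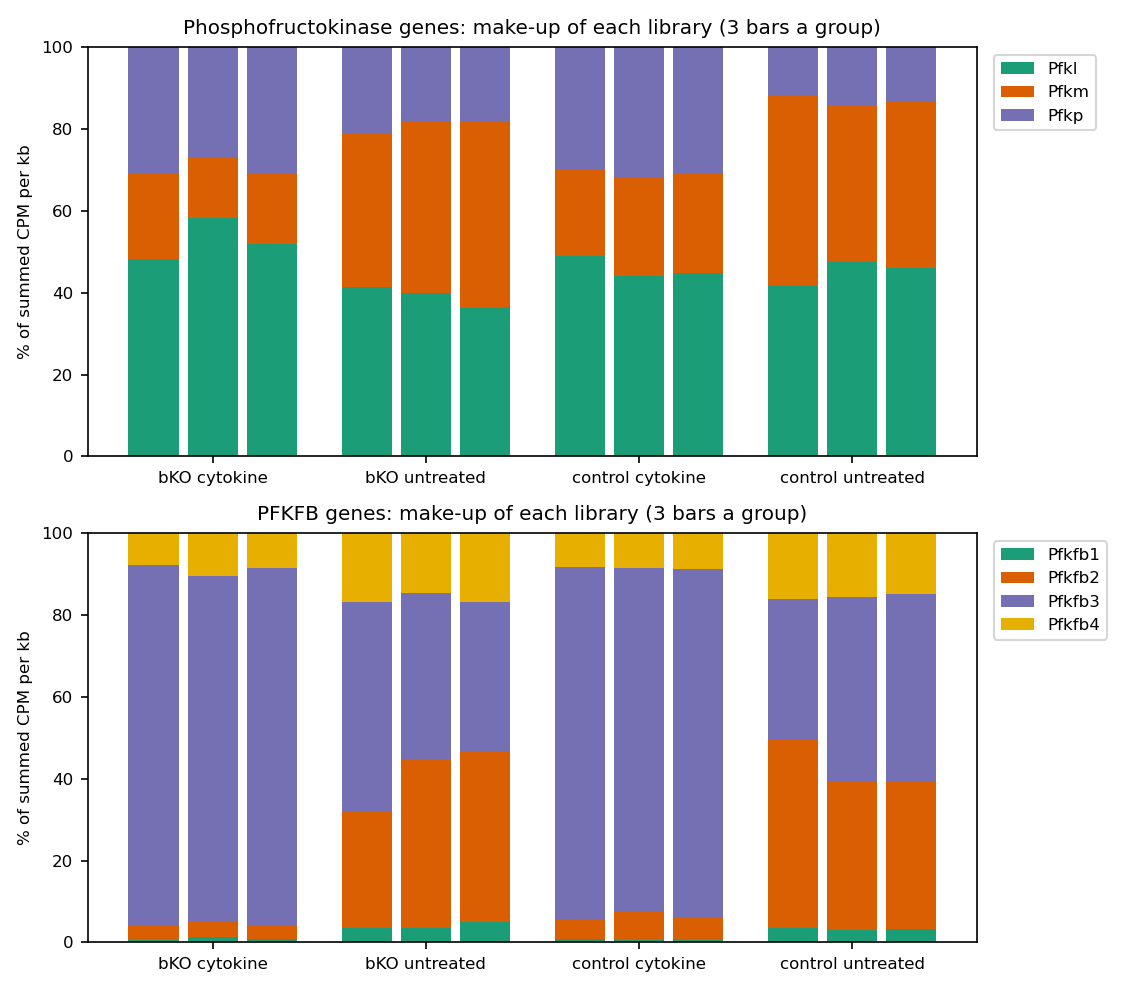
Make-up of the phosphofructokinase genes (top) and the PFKFB genes (bottom) in each library, as a percentage of the family's summed CPM per kb of exon, with 1 bar for each of 3 libraries a group. Pfkm takes 14.6 to 24.2% of every bar with cytokines and 37.4 to 46.4% without, and Pfkfb3 takes 83.9 to 87.9% with and 34.4 to 51.1% without.

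The PFKFB genes encode the bifunctional enzymes that make and degrade fructose 2,6-bisphosphate, the strongest activator of phosphofructokinase, and they include the genes with the largest increase and the largest decrease of the 36 entries in each genotype. Pfkfb3, whose product favours synthesis of the activator (ENSMUSG00000026773, chr2:11471433-11554077), was at 222, 224 and 248 CPM in cytokine-treated islets labelled bKO, against 49.4, 41.5 and 32.1 CPM in untreated ones. Control islets had 225, 191 and 225 CPM with cytokines, against 33.2, 49.1 and 49.3 CPM without. The increase was 5.64-fold in islets labelled bKO (log2 2.50, SE 0.18, edgeR adjusted p = 3.6e-07) and 4.87-fold in control islets (log2 2.29, SE 0.18, edgeR adjusted p = 7.6e-07), with no overlap between treated and untreated libraries.

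Pfkfb2, the form best known from heart and also found in islets (ENSMUSG00000026409, chr1:130689182-130729253), fell. It was at 8.87, 9.77 and 9.28 CPM in treated islets labelled bKO, against 26.3, 40.4 and 34.9 CPM in untreated ones, and at 11.7, 14.9 and 14.4 CPM in treated control islets, against 42.4, 38.2 and 37.7 CPM in untreated ones. The log2 fold change was -1.86 in islets labelled bKO (SE 0.15, edgeR adjusted p = 8.5e-07) and -1.53 in control islets (SE 0.14, edgeR adjusted p = 3.8e-06). Yod1, whose exons overlap those of Pfkfb2 on the opposite strand, averaged 13.5 CPM, which is of the order of Pfkfb2 in treated islets.

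Pfkfb4 rose less, with a log2 fold change of 0.64 in islets labelled bKO and 0.41 in control islets. Pfkfb1, the liver form, was at 0.706 to 1.76 CPM in treated and 1.87 to 2.32 CPM in untreated islets labelled bKO, and at 0.782 to 1.01 CPM in treated and 1.79 to 1.85 CPM in untreated control islets. Its log2 fold change was -0.75 in islets labelled bKO (SE 0.27, edgeR adjusted p = 0.0284), a call lost in 4 alternative settings (log2 -0.49 when replicate 1 of the treated islets was left out), and -1.07 in control islets (SE 0.27, edgeR adjusted p = 0.00481). Apex2, whose exons overlap those of Pfkfb1 on the opposite strand, averaged 6.97 CPM, above the Pfkfb1 level of every library. Per kb of exon, the 4 genes together had 33.4 to 37.6 CPM in treated and 11.6 to 13.5 CPM in untreated islets labelled bKO, and 30.1 to 35.1 CPM in treated and 12.8 to 14.5 CPM in untreated control islets. Pfkfb3 supplied 84.4 to 87.9% of that sum in treated and 36.6 to 51.1% in untreated islets labelled bKO, and Pfkfb2 supplied 3.4 to 3.84% in treated and 28.4 to 41.5% in untreated islets labelled bKO. These family shares were computed after the values had been seen and are a description.

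Upper glycolysis, from glucose 6-phosphate isomerase to triose phosphate isomerase without the committed step, had 4 of 5 entries higher and 0 lower in islets labelled bKO, and 3 higher and 1 lower in control islets. Aldoa, the main aldolase here, was at 1600, 1550 and 1620 CPM in treated islets labelled bKO, against 928, 846 and 799 CPM in untreated ones, and at 1620, 1500 and 1370 CPM in treated control islets, against 853, 1030 and 950 CPM in untreated ones. It rose by log2 0.89 in islets labelled bKO and 0.66 in control islets. Gpi1 (glucose 6-phosphate isomerase) rose by log2 0.70 in islets labelled bKO and 0.42 in control islets, and Tpi1 (triose phosphate isomerase) by 1.00 in islets labelled bKO and 0.47 in control islets. The control calls of both were lost when replicate 1 of the treated control islets was left out (edgeR adjusted p = 0.061 for Gpi1 and 0.0908 for Tpi1) and likewise for replicate 1 of the untreated ones (edgeR adjusted p = 0.0614 for Gpi1 and 0.0833 for Tpi1). Under library totals alone the control changes were 0.19 for Gpi1 (edgeR adjusted p = 0.251) and 0.24 for Tpi1 (edgeR adjusted p = 0.225).

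Aldoc, the brain-type aldolase, was called lower in control islets alone, at 16.4, 12 and 17.3 CPM with cytokines against 24, 29.1 and 27.8 CPM without (log2 -0.83, SE 0.22, edgeR adjusted p = 0.00605). In islets labelled bKO it was at 15, 29.2 and 17.3 CPM with cytokines, against 22.4, 22.9 and 20.6 CPM without, where the high value belongs to replicate 2, the library with high ductal markers. Without that library Aldoc had a log2 fold change of -0.38 there (edgeR adjusted p = 0.0277), against -0.10 with it. The difference of the responses, 0.73 (SE 0.3), did not pass the test (edgeR adjusted p = 0.428). The second Aldoa entry (ENSMUSG00000114515, chr7:126800790-126809108) was at 0.542 to 1.2 CPM over all libraries. Its call in islets labelled bKO (log2 0.63, edgeR adjusted p = 0.0379), 1 of the 4 counted above as higher, was lost in 11 alternative settings, with adjusted p up to 0.168.

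Lower glycolysis, from glyceraldehyde 3-phosphate to pyruvate, had 5 of 6 genes higher in islets labelled bKO and 6 of 6 in control islets, and none of the 6 was lower. Gapdh, often used as a constant reference in expression assays (ENSMUSG00000057666, chr6:125161715-125166467), was at 1810, 1940 and 1830 CPM in treated islets labelled bKO, against 879, 801 and 760 CPM in untreated ones. Control islets had 1790, 1620 and 1450 CPM with cytokines, against 760, 952 and 884 CPM without. The increase was 2.29-fold in islets labelled bKO (log2 1.19, SE 0.11, edgeR adjusted p = 2.2e-06) and 1.87-fold in control islets (log2 0.91, SE 0.11, edgeR adjusted p = 2.1e-05).

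Pgk1, phosphoglycerate kinase, the first ATP-yielding enzyme of the pathway, was at 327, 447 and 371 CPM in treated islets labelled bKO, against 183, 170 and 144 CPM in untreated ones. It was at 374, 273 and 271 CPM in treated control islets, against 163, 209 and 199 CPM in untreated ones. The log2 fold change was 1.20 in islets labelled bKO (SE 0.16) and 0.69 in control islets (SE 0.16), and treated and untreated libraries did not overlap. Eno1 (the common enolase), Pkm (pyruvate kinase of most tissues) and Pgam1 (phosphoglycerate mutase) rose in that sequence by 0.98, 0.71 and 0.74 on the log2 scale in islets labelled bKO, and by 0.53, 0.47 and 0.34 in control islets. The Pgam1 call in control islets was lost in 5 of the alternative settings, with a log2 fold change of 0.11 under library totals alone and 0.21 without replicate 1 of the treated control islets.

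Eno2, the neuronal enolase, which neuroendocrine cells also express, was called in control islets, at 50.9, 62.8 and 61.5 CPM with cytokines against 36.1, 36.8 and 32.8 CPM without (log2 0.73, SE 0.16). In islets labelled bKO it had 53.6, 30.7 and 45.2 CPM with cytokines, against 40.8, 37.4 and 35.1 CPM without, and replicate 2 with cytokines was below all 3 untreated libraries. Without that library the Eno2 change there was 0.45 (edgeR adjusted p = 0.00444), against 0.19 with it. The difference of the responses was -0.54 (SE 0.23, edgeR adjusted p = 0.44).

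Compared per length, the 5 highest entries were the same in each group, while several others changed rank. Aldoa was the highest of the 36 entries in every group, at 546 ± 12 CPM per kb in treated and 295 ± 23 in untreated islets labelled bKO, and 514 ± 44 in treated and 324 ± 30 in untreated control islets (SD, n = 3 each). Gapdh had rank 2 with cytokines, at 450 ± 17 CPM per kb in islets labelled bKO and 392 ± 41 in control islets, and rank 3 without them, at 197 ± 15 in islets labelled bKO and 209 ± 24 in control islets. There Pkm, at 207 ± 19 in islets labelled bKO and 227 ± 16 in control islets, was within the spread of Gapdh. Pgk1 and Eno1 had ranks 4 and 5 in all 4 groups and lay within each other's spread in untreated islets, at 73.8 ± 8.7 and 72.1 ± 7.6 CPM per kb in islets labelled bKO and 84.8 ± 11 and 82.7 ± 13 in control islets. Pfkfb3 had rank 15 in treated islets labelled bKO, at 30.6 ± 1.9 CPM per kb, and rank 28 in untreated islets labelled bKO, at 5.42 ± 1.1. In control islets it had the same ranks, 15 with cytokines and 28 without. Mthfd1 had rank 25 in treated and 13 in untreated islets labelled bKO, Pfkm 27 in treated and 18 in untreated, Slc16a3 20 in treated and 31 in untreated, and Pgd 11 in treated and 17 in untreated islets labelled bKO.

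**Figure D3:**
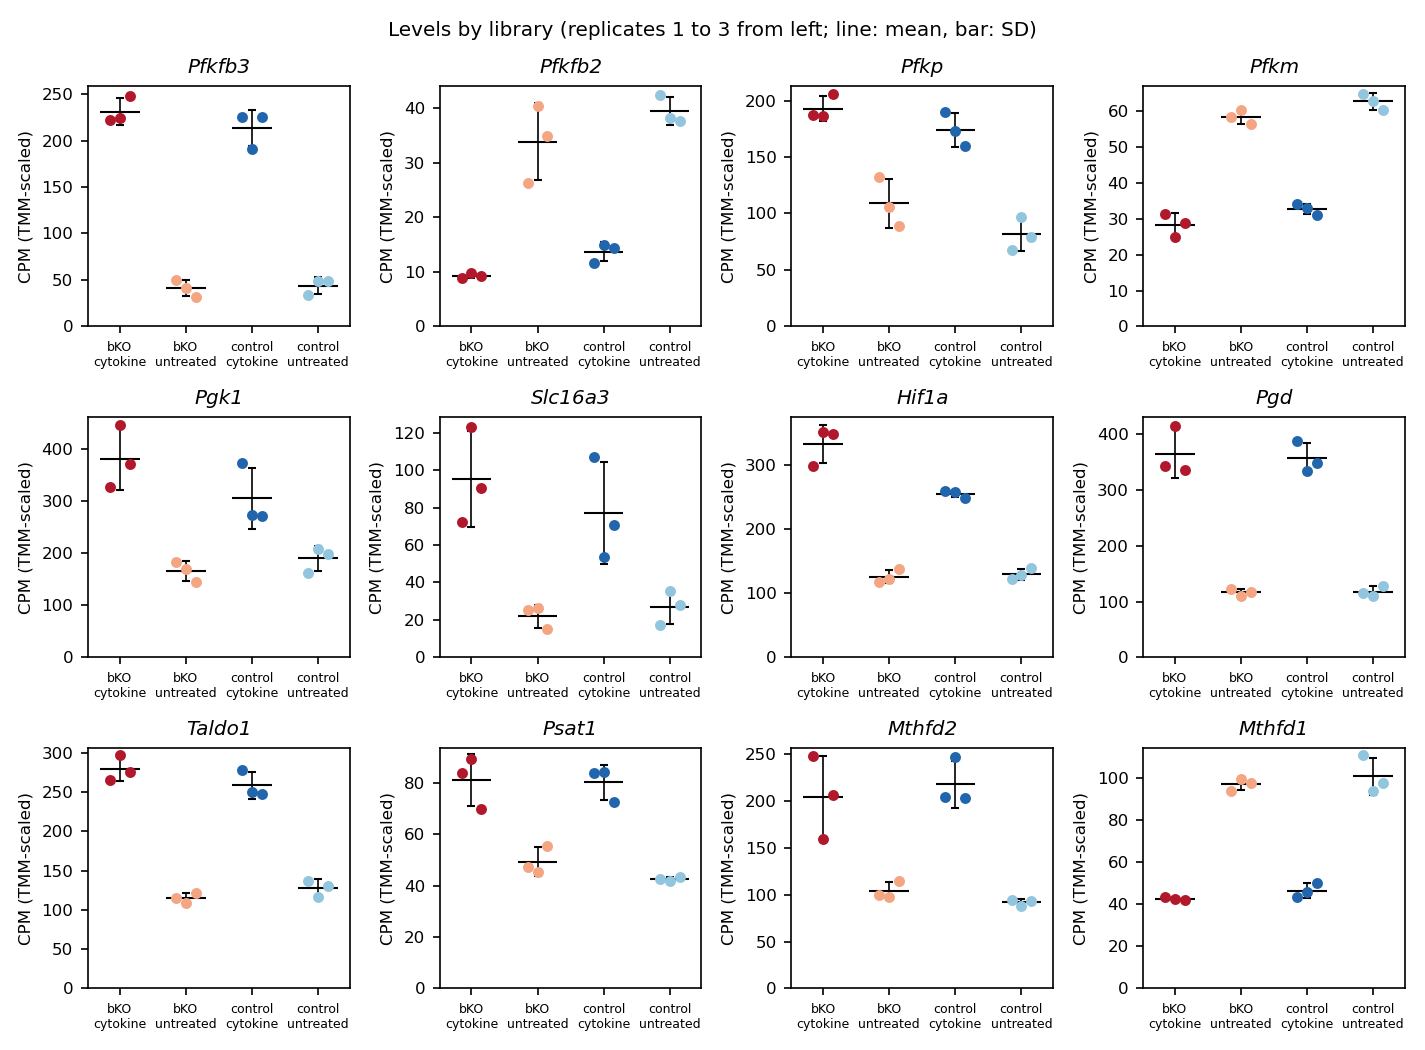
CPM of 12 genes in each library, as points in replicate order, with the mean (line) and SD (bar) of 3 libraries a group, groups from left to right being islets labelled bKO with cytokines and untreated and control islets with cytokines and untreated. Treated and untreated libraries do not overlap for any of the 12 genes in either genotype, and Pfkfb2, Pfkm and Mthfd1 are the ones that are lower with cytokines.

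Beyond pyruvate, Slc16a3, the monocarboxylate transporter MCT4 that carries lactate out of glycolytic cells (ENSMUSG00000025161, chr11:120948480-120960868), was at 72.4, 123 and 90.6 CPM in treated islets labelled bKO, against 25.1, 26.1 and 15 CPM in untreated ones. Control islets had 107, 53.6 and 70.5 CPM with cytokines, against 17.2, 35.4 and 28 CPM without. The groups did not overlap, although values within a treated group differed widely. The increase was 4.32-fold in islets labelled bKO (log2 2.11, SE 0.33, edgeR adjusted p = 1.9e-04) and 2.87-fold in control islets (log2 1.52, SE 0.33, edgeR adjusted p = 0.00177). When replicate 2 of the treated libraries labelled bKO, which had the highest value, was left out, the log2 fold change in that genotype was 1.94 (SE 0.32).

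Ldhb, the lactate dehydrogenase subunit of oxidative tissues, was low, at 8.4, 6.83 and 7.04 CPM in treated and 10.8, 9.7 and 9.41 CPM in untreated islets labelled bKO, a log2 fold change of -0.42 (SE 0.14, edgeR adjusted p = 0.0201). That call was lost with replicate 2 of the treated islets left out (log2 -0.31, edgeR adjusted p = 0.121) and in 4 other alternative settings. Control islets had 8.76, 13 and 10.4 CPM with cytokines and 10.2, 10.1 and 10.2 CPM without, and the groups overlapped.

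Hif1a, the oxygen-regulated subunit of the hypoxia-inducible factor that switches on many glycolytic genes (ENSMUSG00000021109, chr12:73901375-73947530), was at 299, 351 and 349 CPM in treated islets labelled bKO, against 118, 122 and 137 CPM in untreated ones. It was at 259, 258 and 249 CPM in treated control islets, against 122, 128 and 139 CPM in untreated ones. The increase was 2.65-fold in islets labelled bKO (log2 1.40, SE 0.086, edgeR adjusted p = 1.2e-07) and 1.97-fold in control islets (log2 0.98, SE 0.086, edgeR adjusted p = 2.1e-06). HIF1A is controlled mainly through the stability of the protein, which was not measured here.

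The oxidative arm of the pentose phosphate pathway, in which NADPH is made, had 2 of its 3 genes higher in both genotypes. Pgd, 6-phosphogluconate dehydrogenase, which makes the second NADPH (ENSMUSG00000028961, chr4:149149991-149166771), was at 343, 416 and 337 CPM in treated islets labelled bKO, against 122, 110 and 118 CPM in untreated ones. Control islets had 389, 334 and 348 CPM with cytokines, against 116, 110 and 128 CPM without. Pgd rose 3.13-fold in islets labelled bKO (log2 1.65, SE 0.1, edgeR adjusted p = 1.1e-07) and 3.03-fold in control islets (log2 1.60, SE 0.1, edgeR adjusted p = 1.5e-07), the smallest adjusted p of the 36 entries in each genotype.

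G6pdx, glucose 6-phosphate dehydrogenase, the entry enzyme of the pathway, was at 135, 181 and 152 CPM in treated islets labelled bKO, against 77.8, 72.5 and 78.2 CPM in untreated ones, and at 135, 118 and 119 CPM in treated control islets, against 67.7, 68.6 and 69.4 CPM in untreated ones. It rose by log2 1.04 in islets labelled bKO (SE 0.098, edgeR adjusted p = 3.4e-06) and by 0.85 in control islets (SE 0.098, edgeR adjusted p = 1.7e-05). Ikbkg, whose exons overlap those of G6pdx on the opposite strand, averaged 76.7 CPM, so these counts are uncertain to that extent. Pgls, the lactonase between the 2 dehydrogenases, was at 42.7 to 47.8 CPM in treated and 39.2 to 45.2 CPM in untreated islets labelled bKO and at 37.7 to 42.8 CPM in treated and 39.4 to 43.1 CPM in untreated control islets, and did not pass the test in either genotype. Its log2 fold change was 0.13 in islets labelled bKO (95% interval -0.05 to 0.31) and -0.06 in control islets (-0.24 to 0.13). With replicate 2 of the treated libraries labelled bKO left out, Pgls was called in that genotype (log2 0.24, edgeR adjusted p = 0.0357).

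In the non-oxidative arm, which interconverts sugar phosphates, 4 of 4 genes were higher in islets labelled bKO and 3 of 4 in control islets. Taldo1, transaldolase (ENSMUSG00000025503, chr7:141392199-141402968), was at 266, 297 and 276 CPM in treated islets labelled bKO, against 115, 109 and 122 CPM in untreated ones, and at 278, 250 and 248 CPM in treated control islets, against 137, 116 and 131 CPM in untreated ones. It rose by log2 1.28 in islets labelled bKO (SE 0.082, edgeR adjusted p = 1.7e-07) and 1.01 in control islets (SE 0.082, edgeR adjusted p = 1.1e-06). Rpia (ribose 5-phosphate isomerase) and Rpe (ribulose phosphate epimerase) rose by 0.85 and 0.77 on the log2 scale in islets labelled bKO and by 0.55 and 0.70 in control islets. Kansl1l, whose exons overlap those of Rpe on the opposite strand, averaged 27.5 CPM. That is of the order of Rpe, at 17.1 to 38.3 CPM over all libraries.

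Tkt, transketolase, was at 161, 227 and 167 CPM in treated and 146, 140 and 152 CPM in untreated islets labelled bKO, a call (log2 0.34, edgeR adjusted p = 0.0249) that 4 alternative settings lost. With replicate 2 of the treated islets, its highest library, left out, the log2 fold change was 0.23 and still called (edgeR adjusted p = 0.0151). Control islets had 161, 138 and 159 CPM with cytokines and 149, 142 and 157 CPM without.

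Of the 3 enzymes of serine synthesis, Psat1 alone passed the test, in both genotypes. Psat1, phosphoserine aminotransferase (ENSMUSG00000024640, chr19:15904678-15947337), was at 83.9, 89.4 and 70 CPM in treated islets labelled bKO, against 47.2, 45.2 and 55.6 CPM in untreated ones, and at 83.9, 84.2 and 72.4 CPM in treated control islets, against 42.5, 41.9 and 43.5 CPM in untreated ones. The log2 fold change was 0.72 in islets labelled bKO (SE 0.1, edgeR adjusted p = 1.1e-04) and 0.91 in control islets (SE 0.11, edgeR adjusted p = 1.8e-05). Phgdh, which catalyses the first step, was at 65.1, 55.9 and 52.4 CPM in treated and 49.5, 40.8 and 53.4 CPM in untreated islets labelled bKO, and at 53.2, 59.4 and 46.6 CPM in treated and 47, 40.2 and 45.4 CPM in untreated control islets.

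For Phgdh the libraries overlapped in islets labelled bKO and in control islets, with log2 fold changes of 0.27 (SE 0.12, edgeR adjusted p = 0.0738) and 0.26 (SE 0.12, edgeR adjusted p = 0.083). With replicate 2 of the treated libraries labelled bKO left out, the change of Phgdh in that genotype was 0.36 and passed the test (edgeR adjusted p = 0.0441), as did that in control islets (0.34, edgeR adjusted p = 0.0335). Psph, the phosphatase of the last step, was at 19.8 to 24.4 CPM in treated and 19.5 to 22.8 CPM in untreated islets labelled bKO, and at 19.4 to 23.1 CPM in treated and 18.1 to 19 CPM in untreated control islets. Its log2 fold change was 0.10 in islets labelled bKO and 0.17 in control islets, neither called, and the change in control islets passed the test with that same library left out (0.24, edgeR adjusted p = 0.0418). Exons of Psph overlap those of Cct6a on the opposite strand, which averaged 160 CPM.

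Of the 5 folate genes, 2 were higher and 2 lower in islets labelled bKO, and 3 were higher and 2 lower in control islets. Mthfd2, the mitochondrial methylenetetrahydrofolate dehydrogenase (ENSMUSG00000005667, chr6:83305691-83325908), was at 248, 160 and 206 CPM in treated islets labelled bKO, against 99.2, 97.4 and 115 CPM in untreated ones, and at 204, 247 and 203 CPM in treated control islets, against 94.7, 87.6 and 93.1 CPM in untreated ones. The log2 fold change was 0.98 in islets labelled bKO (SE 0.14, edgeR adjusted p = 9.3e-05) and 1.25 in control islets (SE 0.14, edgeR adjusted p = 1.6e-05). The lowest treated library in islets labelled bKO was replicate 2, and without it the Mthfd2 change there was 1.19 (SE 0.12).

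Mthfd1, the trifunctional cytosolic enzyme (ENSMUSG00000021048, chr12:76255298-76319803), was at 43.5, 42.6 and 42.1 CPM in treated islets labelled bKO, against 94.2, 99.7 and 97.6 CPM in untreated ones. Control islets had 43.3, 46.1 and 50.3 CPM with cytokines, against 111, 93.9 and 97.9 CPM without. It fell 2.27-fold in islets labelled bKO and 2.17-fold in control islets, with a log2 fold change of -1.19 in islets labelled bKO (SE 0.077, edgeR adjusted p = 1.9e-07) and -1.12 in control islets (SE 0.077, edgeR adjusted p = 3.2e-07).

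Mthfd1l, the mitochondrial formyltetrahydrofolate synthetase, was also lower, with log2 fold changes of -0.38 in islets labelled bKO (SE 0.12, edgeR adjusted p = 0.0128) and -0.50 in control islets (SE 0.12, edgeR adjusted p = 0.00308). The serine hydroxymethyltransferases move a one-carbon unit from serine to folate, Shmt1 in the cytosol and Shmt2 in mitochondria. Shmt1 was at 3.98 to 6.36 CPM in treated and 2.6 to 3.23 CPM in untreated islets labelled bKO and rose in both genotypes, and the neighbour Smcr8, with exons on the opposite strand over the same bases, averaged 81.7 CPM. Shmt2 was at 97.1 to 102 CPM in treated and 80.3 to 95.3 CPM in untreated islets labelled bKO (log2 0.16, edgeR adjusted p = 0.0634), and at 97.5 to 105 CPM in treated and 74.7 to 80.4 CPM in untreated control islets (log2 0.37, edgeR adjusted p = 7.3e-04). The Shmt2 change in islets labelled bKO was 0.22 and called with replicate 2 of the treated libraries left out (edgeR adjusted p = 0.0338).

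Between the genotypes none of the 36 entries passed the test. With cytokines, 0 were called in islets labelled bKO against control islets (edgeR), beside 0.232% of all genes tested, 0.141% as higher and 0.0909% as lower, while 9 of the 36 had an unadjusted p under 0.05, as did 17.8% of all genes. Without cytokines, 0 were called beside 0.0758% of all genes, each of them higher, and 3 of the 36 had an unadjusted p under 0.05, as did 5.55% of all genes. DESeq2 called 2 entries higher and 2 lower with cytokines, beside 1.48% of all genes as higher and 2.05% as lower, 3.54% in all. Without cytokines it called 0, beside 0.646% of all genes, and limma-voom called 0 of the 36 in both.

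With cytokines, the libraries of the genotypes did not overlap for 3 entries above and 2 below, beside 6.94% and 10.8% of all genes. Without cytokines this held for 5 above (Pfkfb1, G6pdx, Psat1, Psph and Mthfd2) and 2 below (Aldoc and Rpia), beside 8.24% and 7.94% of all genes. Hif1a, whose values with cytokines are given above, was higher in islets labelled bKO by log2 0.38 (SE 0.085, edgeR adjusted p = 0.0826). G6pdx differed by 0.34 (SE 0.097, edgeR adjusted p = 0.149), and the lowest library of islets labelled bKO and the highest of control islets both print as 135 CPM. Gapdh differed by 0.20 (SE 0.11, edgeR adjusted p = 0.333). Pfkfb2 differed by -0.55 (SE 0.15, edgeR adjusted p = 0.121) and Ldhb by -0.53 (SE 0.14, edgeR adjusted p = 0.122), with every library labelled bKO below every control library.

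DESeq2 called Hif1a (log2 0.37, adjusted p = 0.00329), G6pdx (0.32, adjusted p = 0.0368), Pfkfb2 (-0.57, adjusted p = 0.0221) and Ldhb (-0.55, adjusted p = 0.0267). With replicate 1 of the treated libraries labelled bKO left out, edgeR called Hif1a (0.46, adjusted p = 0.0309) and G6pdx (0.43, adjusted p = 0.0393), beside 191 genes higher and 253 lower over all genes. Without cytokines, the log2 difference was -0.04 for Hif1a, 0.15 for G6pdx, -0.22 for Pfkfb2 and -0.03 for Ldhb. With replicate 2 of the treated libraries labelled bKO left out, the one with high ductal and stellate markers, 0 entries were called and the median log2 difference with cytokines over the 36 entries was 0.056, against 0.12 with it. The median over all genes tested moved down too, to -0.032 without that library, against 0.005 with it.

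**Figure D4:**
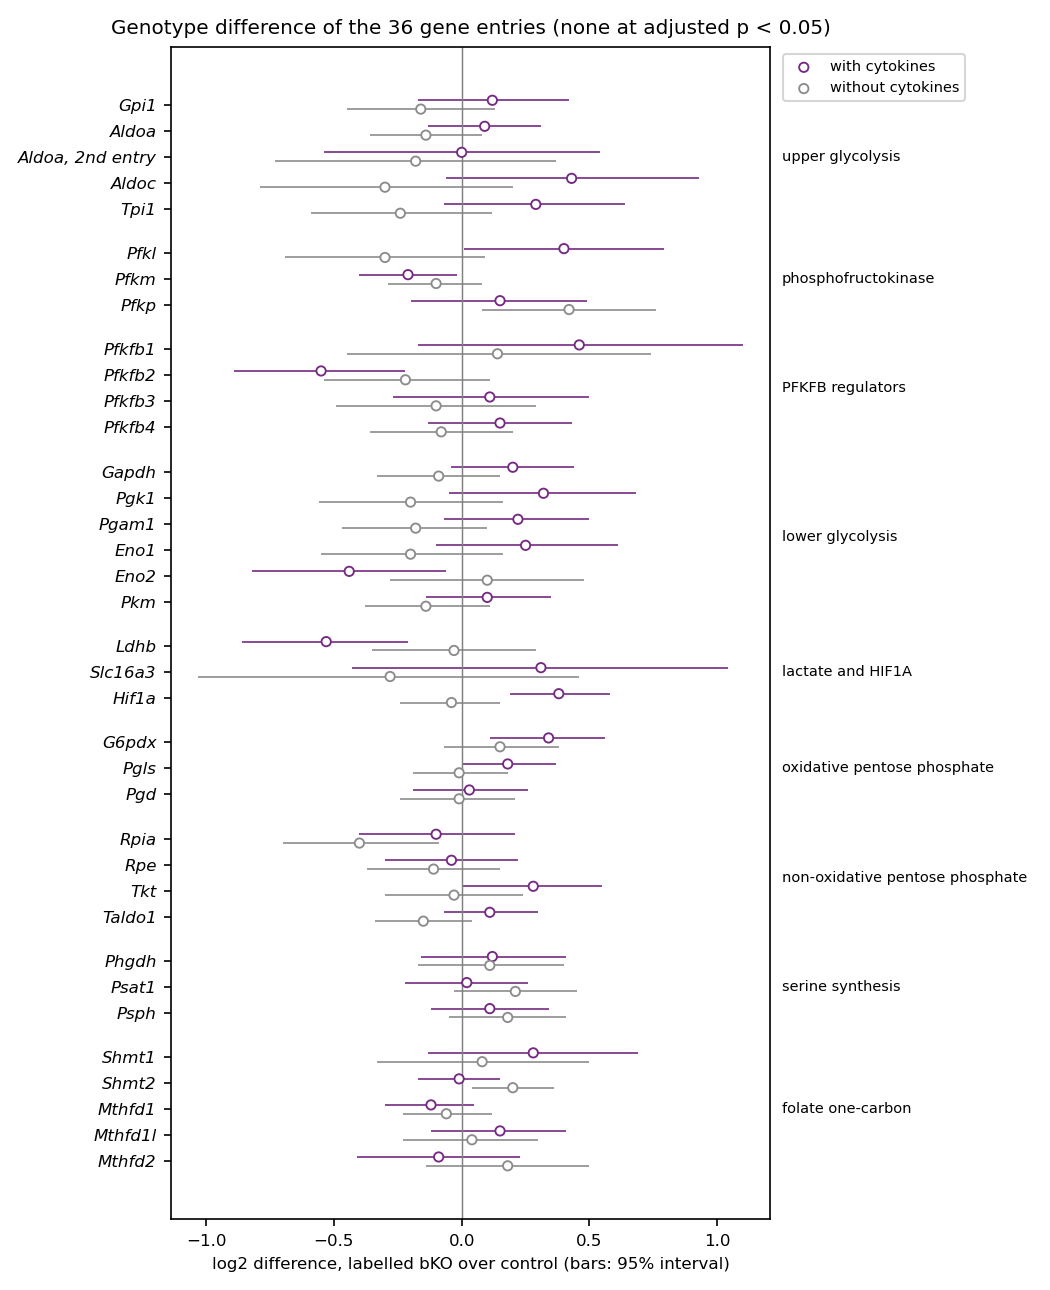
Log2 difference of each gene entry between islets labelled bKO and control islets, with cytokines (purple) and without (grey), with bars for the 95% interval. No point passes an adjusted p under 0.05, and Hif1a, at 0.38 with cytokines and -0.04 without, has the smallest adjusted p, 0.0826.

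The cytokine responses of the genotypes were compared directly by the difference of their log2 fold changes, islets labelled bKO minus control islets. Of the 36 entries, 0 were called by edgeR, as were 0% of all genes tested, and DESeq2, which called 0.939% of all genes, and limma-voom also called 0 of the 36. Acinar markers had a median difference of 1.47, with 0 of 10 called, and their part in these differences was not tested. The difference was positive for 26 entries and negative for 10, and 9 had an unadjusted p under 0.05, as did 10.9% of all genes. The smallest adjusted p belonged to Hif1a, with a difference of 0.43 (SE 0.12, edgeR adjusted p = 0.314). Pgk1 and Tpi1 differed by 0.52 (SE 0.22, edgeR adjusted p = 0.438) and 0.53 (SE 0.22, edgeR adjusted p = 0.425), and Ldhb by -0.50 (SE 0.2, edgeR adjusted p = 0.41).

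Intervals show how large a difference these libraries leave possible. For Pfkfb3 the difference of responses was 0.21 with a 95% interval of -0.34 to 0.76, for Pgd 0.05 with -0.27 to 0.36, for Psat1 -0.19 with -0.54 to 0.15 and for Mthfd1 -0.07 with -0.32 to 0.18. Over all 36 entries the median difference was 0.20, and it was 0.111 with replicate 2 of the treated libraries labelled bKO left out. The median over all genes tested was 0.009, and it was -0.028 with that library left out. Most of the upper and lower glycolytic entries were highest, or lowest, in the same library of a group. Replicate 2 of the treated islets labelled bKO was the highest of its group for 8 of 11 such entries and the lowest for 3. Replicate 3 of the untreated islets labelled bKO was the lowest for 11 of 11. Among untreated control islets replicate 2 was the highest and replicate 1 the lowest for 10 of 11 each. Among treated control islets replicate 1 was the highest for 8 and the lowest for 2, and replicate 3 was the lowest for 6. The same count over all genes was not made.

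Genes around these pathways were followed as lists. Beside each list below, 28.8% of all genes tested were higher and 33.6% lower with cytokines in islets labelled bKO (median log2 -0.06). In control islets 26.8% of all genes were higher and 33.9% lower (median -0.10). Of 29 measured genes for the entry, the side branches and the reverse steps of glycolysis, 9 were higher and 13 lower with cytokines in islets labelled bKO (median log2 -0.18), and 9 were higher and 11 lower in control islets (median -0.12). Slc2a1, the glucose transporter GLUT1, averaged 499 CPM in treated and 64.5 CPM in untreated islets labelled bKO (log2 2.95, edgeR adjusted p = 4.3e-08), and 400 CPM in treated and 70.5 CPM in untreated control islets (log2 2.50, edgeR adjusted p = 1.5e-07). Hk3, a high-affinity hexokinase best known from blood cells, averaged 45.8 CPM in treated and 4.48 CPM in untreated islets labelled bKO, and 41.6 CPM in treated and 3.88 CPM in untreated control islets.

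In the opposite direction, G6pc2, the islet glucose 6-phosphatase that reverses the hexokinase step, averaged 109 CPM in treated and 910 CPM in untreated islets labelled bKO (log2 -3.07, edgeR adjusted p = 9.4e-08), and 229 CPM in treated and 1030 CPM in untreated control islets (log2 -2.17, edgeR adjusted p = 1.1e-06). With cytokines G6pc2 was also lower in islets labelled bKO than in control islets (log2 -1.08, edgeR adjusted p = 0.0334), the one gene of the 29 that edgeR called in a genotype comparison. That call was lost when only the compared groups were fitted (log2 -1.06, edgeR adjusted p = 0.362), with the replicate block (-1.09, edgeR adjusted p = 0.101), and when 10 of the 12 libraries were left out singly, those other than replicates 1 and 2 of the treated islets labelled bKO (highest edgeR adjusted p = 0.133). In the same comparison 2 of the 10 beta cell markers were lower (median log2 -0.69), and the median was 0.84 for ductal and 0.69 for stellate markers, none of them called. The part of these markers in the G6pc2 difference was not tested. Pklr, the pyruvate kinase of liver and red cells, was lower with cytokines by log2 -1.73 in islets labelled bKO, and Gpd2, of the glycerol phosphate shuttle, by -1.24 in control islets. G6pc2 is also on the list of beta cell markers.

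Of 9 further pentose phosphate genes, 1 was higher and 6 lower in islets labelled bKO, and 0 were higher and 7 lower in control islets, with a median log2 fold change of -0.39 in both. H6pd, the NADPH-making dehydrogenase of the endoplasmic reticulum, was the one that rose (log2 0.83, edgeR adjusted p = 0.0154). Prps1 and Prps2, which pass ribose 5-phosphate on to nucleotide synthesis, were lower by log2 -0.82 and -0.58 in islets labelled bKO. Rbks, ribokinase, and Prps2 were lower in control islets by log2 -1.0 and -0.53.

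Of 24 further serine and folate genes, 1 was higher and 12 lower in each genotype, with medians of -0.30 in islets labelled bKO and -0.40 in control islets. Sfxn1, the mitochondrial serine carrier, was lower by log2 -0.47 in islets labelled bKO (edgeR adjusted p = 2.8e-05) and -0.42 in control islets (edgeR adjusted p = 7.4e-05). Amt, of the glycine cleavage system, was lower by -1.37 in islets labelled bKO, and Gcsh, of the same system, by -1.06 in control islets. The genes that rose were Mthfd2l in islets labelled bKO (0.57) and Mtrr in control islets (0.25).

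Genes of 3 stress-responsive factors were listed as well. Beside known targets, each list holds genes of the factor itself or of its control, such as Nfe2l2 (NRF2), Keap1 and Atf4. NRF2 drives antioxidant genes and some of the pentose phosphate pathway. All 15 genes of its list were higher in both genotypes. Their median log2 fold change was 1.34 in islets labelled bKO and 1.33 in control islets. Srxn1, sulfiredoxin, averaged 547 CPM in treated and 153 CPM in untreated islets labelled bKO, and 550 CPM in treated and 147 CPM in untreated control islets. Gsr, glutathione reductase, which uses NADPH, averaged 245 CPM in treated and 97 CPM in untreated islets labelled bKO, and 233 CPM in treated and 92.9 CPM in untreated control islets.

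Of 24 genes of the hypoxia-inducible factor system other than the 35, 18 were higher and 4 lower in islets labelled bKO (median 0.62), and 11 were higher and 5 lower in control islets (median 0.16). Of those that rose, Slc2a1 and Ndrg1, a stress-induced gene (log2 1.38 in islets labelled bKO and 1.11 in control islets), had the smallest adjusted p in each genotype. The largest increase was that of Egln3, an oxygen-sensing prolyl hydroxylase, named after its values were seen, with log2 4.00 in islets labelled bKO and 2.70 in control islets. Epas1, which encodes the related factor HIF2A, was lower by -0.55 in islets labelled bKO and -0.68 in control islets. Hif1an, the hydroxylase that inhibits HIF1A, was lower by -0.45 in islets labelled bKO, and Ankrd37, a HIF1A target, by -1.45 in control islets. The difference of the responses was called for 0 of the 24.

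Of 19 genes of ATF4, the factor that induces serine and amino acid genes under stress, 11 were higher and 4 lower in islets labelled bKO (median 0.61), and 10 were higher and 2 lower in control islets (median 0.33). Ddit3, the stress factor CHOP, averaged 180 CPM in treated and 16.6 CPM in untreated islets labelled bKO, and 207 CPM in treated and 16.2 CPM in untreated control islets. Slc7a11, the cystine transporter, which is also on the NRF2 list, averaged 430 CPM in treated and 19.7 CPM in untreated islets labelled bKO, and Trib3 rose by log2 1.83 in control islets. Pycr1, of proline synthesis, was lower in both genotypes, by -0.61 in islets labelled bKO and -0.49 in control islets, and so was Vldlr, a lipoprotein receptor, by -0.45 in islets labelled bKO and -0.20 in control islets.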

How the data were processed

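Total RNA of 12 islet libraries was sequenced, and groups were taken from the sample titles. The table that the authors deposited holds raw whole-number counts for 55536 genes. The processing notes of the submitters name the GRCm38 genome and, among the tools, STAR 2.5.2a and featureCounts 1.6.2, beside cutadapt 1.16, FastQC 0.11.7 and DESeq2 1.30.0. No source used here gives the annotation release or the strand setting.

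The filterByExpr function left 19800 genes. After TMM scaling they entered edgeR 4.0.16 under R 4.3.3 (quasi-likelihood test, a coefficient for each of 4 groups over all 12 libraries, Benjamini-Hochberg adjustment at 0.05). Intervals are 95% with 8 degrees of freedom and are somewhat wider than the edgeR test implies. Phgdh in islets labelled bKO had an unadjusted edgeR p of 0.0488 with an interval of -0.01 to 0.56. CPM uses the scaled library size, and CPM per kb divides it by the union of exons in GENCODE M21, which also gave positions. Phosphofructokinase shares were compared by a two-sided exact permutation test. Promoter windows and their sequences are from RefSeq (GRCm38.p6).

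The genes and lists were chosen with earlier results of these data known. Genes given with full statistics are the 6 per direction with the smallest adjusted p in each genotype and Pfkfb3, Hif1a, Slc16a3, Pgd, Phgdh, Psat1 and Mthfd2, and from each other list the 2 per direction with the smallest adjusted p. Pgk1, Pfkp, Pfkl, Aldoa, Aldoc, Eno2, Tkt, Egln3 and the genes named in the genotype comparisons outside that rule were added after their values were seen. No library was a copy of another: chi-square per degree of freedom was 15 or more for each of 12 pairs within groups (genes with a summed count of 20 or more). Scaling was varied (size factors of DESeq2, library totals, TMM leaving out acinar markers and genes above 1% of the counts), as were the filter (none, or 1 CPM in at least 3 libraries) and the tool (limma-voom with limma 3.58.1, DESeq2 1.42.0). The fit was also run on the compared groups only, with the replicate number as a block, and with single libraries left out. No column of per-sample counts was left unused.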

Additional observations from a re-analysis of the deposited data

How the results depend on the processing

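With each library left out in turn, the entries called higher with cytokines numbered 22 to 28 in islets labelled bKO and 20 to 25 in control islets, and those called lower 4 to 6 and 6 in each case, against 24, 23, 6 and 6 with all libraries. Over all genes, 5025 to 6079 were then higher and 6025 to 6742 lower in islets labelled bKO. In control islets 4773 to 6393 were higher and 5981 to 6952 lower. Under library totals alone 15 entries were higher in control islets, since all log2 fold changes then shift down. Between the genotypes with cytokines, DESeq2 called 2 entries higher and 2 lower, against 0 and 0 by edgeR, and leaving out libraries gave 0 to 2 higher. Over all genes that comparison gave 28 higher and 18 lower with edgeR, 294 and 406 with DESeq2, 63 and 127 with no filter, 5 and 2 with the replicate block, 0 and 0 from the compared groups only, and 2 to 191 higher and 2 to 253 lower with a library left out. Without cytokines it gave 15 and 0 with edgeR, 92 and 36 with DESeq2, 29 and 3 with no filter, 91 and 30 from the compared groups only, and 12 to 53 higher and 0 to 6 lower with a library left out. For the difference of the responses DESeq2 called 100 and 86 genes, against 0 and 0. No called entry changed direction under any alternative run.

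The share of Pfkl in control islets, 0.857 percentage points higher with cytokines, was -10.2 when counts were not divided by length, as the lengths weight the genes differently, and ranged from -0.887 to 2.06 with a library left out. The share of Pfkm between the genotypes without cytokines, 0.0349 points, was -1.32 without division by length and ranged from -2 to 2.4 with a library left out. The share of Pfkp between the genotypes with cytokines, -1.14 points, ranged from -1.83 to 0.125. With a smallest possible permutation p of 0.1, none of these 3 differences could be called.

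A replicate block gave 23 higher and 6 lower in islets labelled bKO and 22 higher and 6 lower in control islets. Over all genes it gave 5278 higher and 6356 lower in islets labelled bKO and 4990 and 6357 in control islets. It lost Pgam1 in control islets (adjusted p = 0.0644) and the second Aldoa entry in islets labelled bKO (adjusted p = 0.0617) and changed no other call among the 36 entries; the call of G6pc2 between the genotypes with cytokines was also lost (adjusted p = 0.101). The same replicate numbers share no stated source. Within a genotype, correlations of deviations between same-numbered treated and untreated libraries ran from -0.10 to 0.10. The numbers were therefore not treated as pairs. Calls of Gpi1 and Tpi1 in control islets were lost under library totals alone (adjusted p 0.251 and 0.225). Those of Shmt1, Shmt2, Pkm, Eno1 and Pfkfb4 were lost there too (adjusted p 0.0906, 0.104, 0.0825, 0.139 and 0.269), that of Eno1 also with replicate 1 of the treated control islets left out (adjusted p = 0.0548), and that of Mthfd1l in islets labelled bKO without replicate 1 of the treated islets (adjusted p = 0.0502). The 3 libraries a group limit what can be told for genes near 1 CPM, such as Pfkfb1.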
